A study of Sus scrofa with 30 samples.

Results

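The miR-29 family was followed through the porcine endometrium of early pregnancy and the estrous cycle. Its members were taken from the 873 small RNA sequences that the study annotated as mature miRNAs or isomiRs, an isomiR being a length or end variant of a miRNA, by keeping every sequence whose name had the root mir-29a, mir-29b or mir-29c. Of the 873 sequences, 4 had the root mir-29a, 0 had the root mir-29b and 0 had the root mir-29c. The 4 sequences are named here by their length or first base as the 21-nt form, the 22-nt form, the 23-nt form and the C-start form.

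Endometrium was collected post mortem from Hampshire x Duroc crossbred gilts of 7 to 8 months, 1 library per animal, with 16 pregnant and 14 cyclic animals. The pregnant groups were PD12 (D12, n = 5), PD16 (D16, n = 5) and PD20 (D20, n = 6), and the cyclic groups, sampled on the same days of the estrous cycle, were CD12 (n = 4), CD16 (n = 5) and CD20 (n = 5). Pregnant animals had been inseminated, conceptuses were flushed from the uterus until D16, and the D20 pregnant tissue was taken where conceptuses had implanted, without the conceptus itself. Each library held between 2029729 and 6402731 reads, with a median of 3111079, of which between 1574834 and 5241838 had one of the 873 annotated sequences. The tissue holds several cell types, and in such bulk samples fewer cells of a type and less RNA per cell cannot be told apart.

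The miR-29 family is best known for repressing genes of the extracellular matrix, among them fibrillar and basement membrane collagens, elastin and fibrillin, and is treated as a brake on fibrosis in many organs. A miRNA guides an Argonaute protein to mRNAs that pair with its seed, the bases from position 2 to 8, so forms that start at the same base share a seed and forms that start elsewhere do not. In the uterus the stroma beneath the epithelium is rebuilt while the conceptus attaches and again when the cycle restarts. In mammals the family is made from a pair of gene clusters. In the RefSeq annotation of the pig, MIR29B-1 and MIR29A lie on the same chromosome with 0 other gene starts between them, as do MIR29B-2 and MIR29C.

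The sequences of the 4 members are printed because they differ only at their ends, which is what the comparisons below turn on. They are written 5′ to 3′ as deposited, with T for U and with positions 2 to 8 in capitals.
21-nt form: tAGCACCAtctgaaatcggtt
22-nt form: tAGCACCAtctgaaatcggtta
23-nt form: tAGCACCAtctgaaatcggttat
C-start form: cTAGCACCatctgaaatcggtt
The 21-nt, 22-nt and 23-nt forms shared the seed AGCACCA and differed only in their 3′ end. The C-start form carried 1 more base at its 5′ end and so had TAGCACC in the seed positions. All 4 contained the 21-nt form whole, so these members are variants of 1 mature miRNA and are not independent of each other.

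miR-29a was a minor miRNA of this tissue. Over the 30 libraries the 21-nt form had 2421 reads, the 22-nt form 1486, the C-start form 746 and the 23-nt form 222. Levels are given as CPM, that is reads per 1000000 reads of the annotated sequences after TMM scaling, which corrects for differences in library composition. The 21-nt form had a mean of 32.8 CPM and ranked 336 of 873, the 22-nt form had 19.9 CPM and ranked 410, the C-start form had 10.01 CPM and ranked 548, and the 23-nt form had 2.94 CPM and ranked 857. The median sequence of the 873 had a mean of 17.4 CPM. The 4 sequences together took between 0.00208% and 0.0269% of the annotated reads of a library, with a median of 0.00544%, and rested on 52 to 552 reads per library. For comparison, the most abundant sequence of miR-21 had a mean of 180936 CPM.

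**Figure D1:**
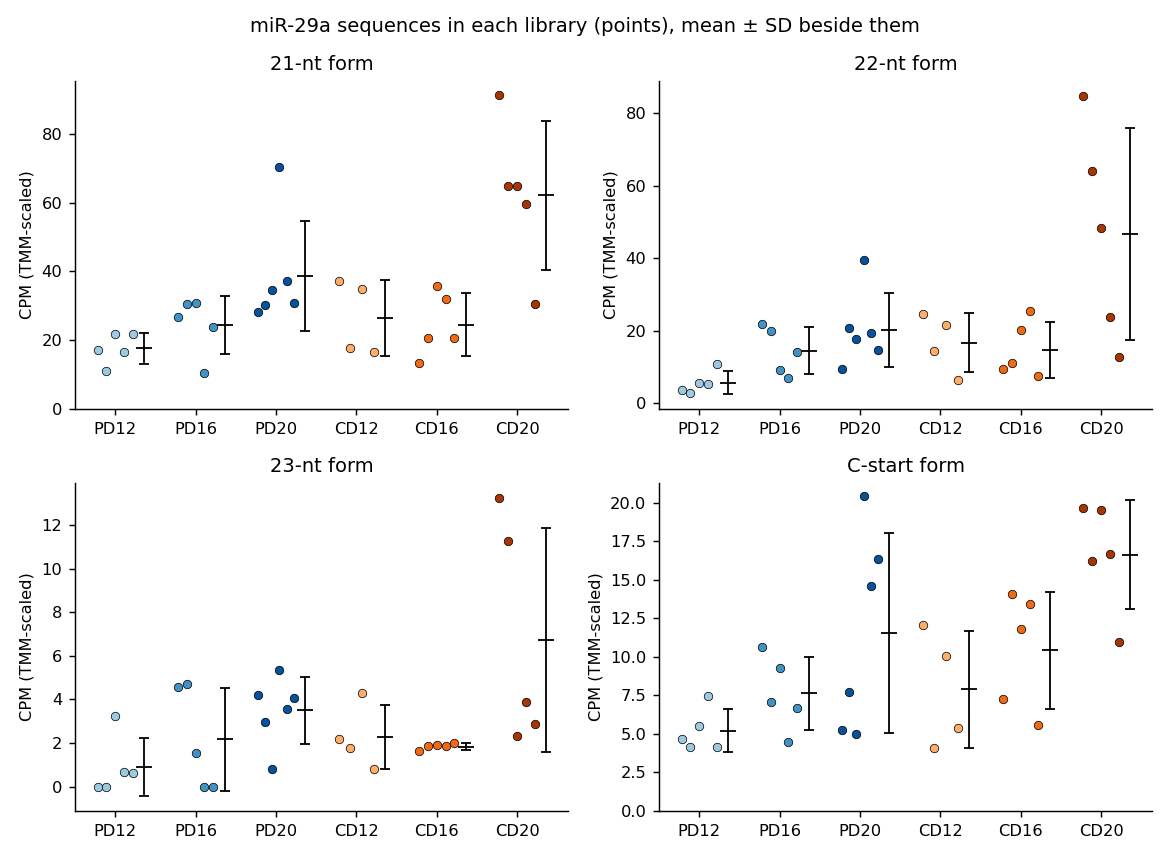
Level of each miR-29a sequence (y axis, CPM after TMM scaling) in the 6 groups, each point a library, with the mean and SD beside the points. The CD20 libraries spread widely and hold the highest value of the 21-nt, 22-nt and 23-nt forms, while PD12 has the lowest mean of each form.

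The summed level of the 4 sequences had its highest mean in CD20 and its lowest in PD12. It was 132.4 ± 56.8 CPM (SD, n = 5) in CD20, 74.0 ± 31.7 (n = 6) in PD20, 53.5 ± 23.4 (n = 4) in CD12, 51.6 ± 18.95 (n = 5) in CD16, 48.9 ± 17.1 (n = 5) in PD16 and 29.4 ± 8.02 (n = 5) in PD12. The CD20 libraries held 209.0, 156.5, 135.0, 104.1 and 57.1 CPM. The lowest of them lay inside the range of every group but PD12, so the group was high through 4 of its 5 libraries. The PD20 libraries ran from 47.1 through a median of 63.8 to 135.9 CPM, and the highest, replicate 4, stood apart from the next at 75.0 CPM. The PD12 libraries held 25.6, 17.9, 36.03, 30.2 and 37.5 CPM, all below the lowest PD20 library. The means of CD12, CD16 and PD16 lay within 1 SD of each other, and neighbours in the order of groups overlapped in every case.

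The 22-nt form, second in reads among the members, held 3.75, 2.75, 5.54, 5.42 and 10.9 CPM in the PD12 libraries, from 8 to 34 reads each. It held 21.995, 20.05, 9.29, 7.07 and 14.3 CPM in PD16. The PD20 libraries ran from 9.42 through 18.7 to 39.6 CPM. Libraries of PD12 were low as a group, and 5 of the 6 PD20 libraries lay above all of them. In the cycle it held 24.7, 14.3, 21.5 and 6.595 CPM in CD12. It held 9.42, 11.1, 20.3, 25.5 and 7.58 CPM in CD16, and 84.8, 64.2, 48.4, 23.9 and 12.9 CPM in CD20. The first 3 CD20 libraries exceeded every library of the other 5 groups, while the last 2 lay inside the range of CD12 and CD16.

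The 21-nt form was the most abundant member in every group. It held 17.2, 10.99, 21.7, 16.6 and 21.8 CPM in PD12, then 26.9, 30.7, 30.97, 10.4 and 23.8 CPM in PD16. The PD20 libraries ran from 28.3 through 32.7 to 70.5 CPM, and all 6 lay above every PD12 library. It held 37.3, 17.7, 34.9 and 16.5 CPM in CD12 and 13.5, 20.7, 35.9, 31.98 and 20.7 CPM in CD16. The CD20 libraries held 91.3, 64.9, 64.7, 59.6 and 30.5 CPM, of which 4 lay above every CD12 and CD16 library.

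The C-start form, with the shifted seed, had a mean of 5.20 ± 1.39 CPM (SD, n = 5) in PD12, 7.62 ± 2.39 (n = 5) in PD16, 11.5 ± 6.47 (n = 6) in PD20, 7.89 ± 3.77 (n = 4) in CD12, 10.4 ± 3.79 (n = 5) in CD16 and 16.6 ± 3.55 (n = 5) in CD20. Its PD20 libraries split into replicates 1 to 3 at 5.23, 7.69 and 4.99 CPM and replicates 4 to 6 at 20.5, 14.6 and 16.3 CPM. The 23-nt form was near the limit of detection. The study annotated only sequences with 10 reads or more in at least 4 libraries of some group (3 in CD12), and the 23-nt form met this in PD20 alone, with 4 libraries, so that its comparisons with PD20 are shaped by this filter and are given as values only. The other 3 members met it in all 6 groups. The 23-nt form had 0 reads in PD12 replicates 1 and 2 and PD16 replicates 4 and 5. A count of 0 allows up to 3 reads, or 0.938, 1.03, 1.12 and 1.43 CPM in these libraries, for counting error only. Its highest values were 13.3 and 11.3 CPM in CD20 replicates 1 and 2, and its CD16 libraries lay between 1.61 and 1.99 CPM.

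The first question was whether miR-29a changed over the days of pregnancy. On D20 vs. D12 of pregnancy the 22-nt form was higher by a log2 fold change (log2FC) of 1.84 ± 0.44 (SE), the C-start form by 1.15 ± 0.42 and the 21-nt form by 1.14 ± 0.34. The 23-nt form had a value of 2.05 ± 0.91, in the group through which it had entered the list. The threshold was an adjusted p (Benjamini-Hochberg, over all 873 sequences) under 0.05 in edgeR's quasi-likelihood test together with a log2FC beyond 1 in either direction, and a sequence past it is said to be called. The test of D12 against both later days was a joint one. None of the other 3 members was called, with joint adjusted p from edgeR of 0.0706 for the 22-nt form, 0.143 for the 21-nt form and 0.245 for the C-start form. The background was low too, with 0.802% of the 873 sequences called on D20 vs. D12 and 0.229% on D16 vs. D12. At an unadjusted joint p under 0.05 stood all 3, beside 18.7% of all sequences. When D20 alone was set against D12, the 22-nt form passed with an adjusted p of 0.0417 from edgeR, as 1 of 25 of the 873 sequences. For D20 vs. D12, DESeq2 called 2 of the members among 55 of the 873 sequences, and the likelihood ratio test called 1 among 46, where the quasi-likelihood test had called 7 sequences. On D16 vs. D12 its log2FC was 1.44 ± 0.45, and that of the 21-nt form was 0.54 ± 0.35. Between D16 and D20 of pregnancy the log2FC of these 3 lay between 0.41 and 0.60 with adjusted p between 0.396 and 0.690 in edgeR, and 0 of them were called beside 0.573% of all sequences, with 0 at an unadjusted p under 0.05 beside 14.2% of all.

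The PD20 and PD12 libraries did not overlap in the 21-nt form, a separation found for 3.32% of the 873 sequences in this comparison. The 22-nt form overlapped through PD20 replicate 1 at 9.42 CPM and PD12 replicate 5 at 10.9 CPM.

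**Figure D2:**
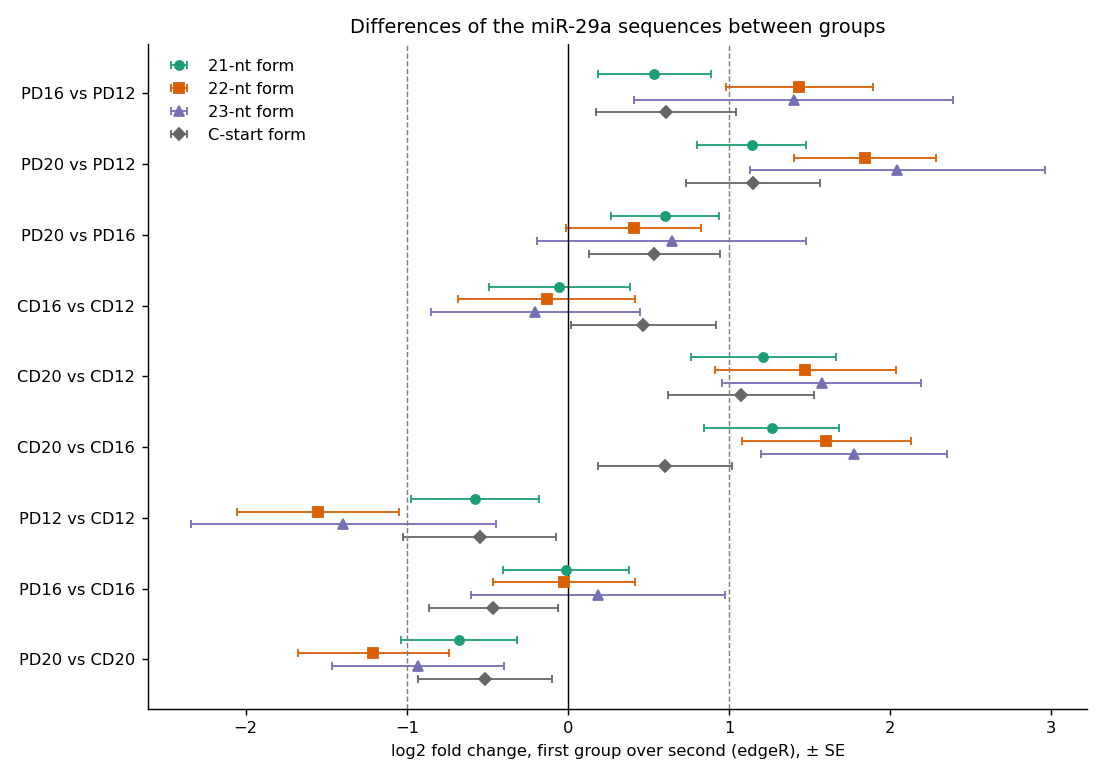
log2FC of the 4 miR-29a sequences (x axis, first group over second, edgeR) in the 9 comparisons of 2 groups (y axis), bars showing the SE and dashed lines a log2FC of -1 and 1. The forms lie together in most comparisons, to the right on D20 vs. D12 in pregnancy and cycle and to the left for PD12 vs. CD12 and PD20 vs. CD20, and no value was called.

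The second question was the same over the days of the cycle. Between D12 and D16 the members stayed close to each other, with log2FC of -0.05 ± 0.44 for the 21-nt form, -0.13 ± 0.55 for the 22-nt form, -0.20 ± 0.65 for the 23-nt form and 0.47 ± 0.45 for the C-start form, all within about their SE. On D20 vs. D16 the 23-nt form was higher by 1.78 ± 0.58, the 22-nt form by 1.60 ± 0.52 and the 21-nt form by 1.27 ± 0.42, with adjusted p of 0.0969, 0.0969 and 0.0994 in edgeR. The C-start form differed by 0.60 ± 0.41, with an adjusted p of 0.406. On D20 vs. D12 the log2FC were 1.57 ± 0.62, 1.47 ± 0.56, 1.21 ± 0.45 and 1.07 ± 0.45 in the same order, with joint adjusted p between 0.121 and 0.255 in edgeR. Again 0 members were called, beside 0.458% of all sequences on D20 vs. D16, 0.458% on D20 vs. D12 and 0.115% on D16 vs. D12. At an unadjusted p under 0.05 stood 3 of the 4 members on D20 vs. D16, beside 21.2% of all sequences. By the joint p 3 of the 4 did so on D20 vs. D12, beside 23.9% of all. The 23-nt form did not overlap between CD20 and CD16, where 4.93% of all sequences did not, but its CD16 libraries held only 4 to 6 reads each. Without CD20 replicate 3 it was called, with a log2FC of 2.06 and an adjusted p of 0.0498 in edgeR, as 1 of 36 of the 873 sequences against 4 with all libraries. With all libraries DESeq2 called 3 members on D20 vs. D16 among 75 of the 873 sequences, and the likelihood ratio test called 2 among 56. For D20 vs. D12 DESeq2 called 0 members among 17 sequences, and the likelihood ratio test called 3 among 50. A single fit of all 30 libraries called 2 members among 50 sequences on D20 vs. D12 and 2 among 64 on D20 vs. D16.

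Pregnant and cyclic endometria of the same day were compared next. On D12 the 22-nt form was lower in pregnancy by a log2FC of -1.55 ± 0.50, with an unadjusted p of 0.00793 and an adjusted p of 0.678 in edgeR. Only 0.458% of the 873 sequences had a lower log2FC in this comparison. The 21-nt form differed by -0.58 ± 0.40. No sequence of the table was called on D12, a background of 0%, and 1 of the 4 members stood at an unadjusted p under 0.05 beside 6.07% of all sequences. On D16 the 21-nt form differed by -0.01 ± 0.39 and the 22-nt form by -0.02 ± 0.44, and again 0% of all sequences were called. At an unadjusted p under 0.05 stood 0 members on D16, beside 10.9% of all sequences. On D20 the 22-nt form was lower in pregnancy by -1.21 ± 0.47, the 21-nt form by -0.68 ± 0.36 and the C-start form by -0.51 ± 0.42. Their adjusted p in edgeR were 0.110, 0.215 and 0.420, and 0 of the 3 were called beside 1.49% of all sequences, with 1 of them at an unadjusted p under 0.05 beside 28.5% of all. The 23-nt form had a value of -0.93 ± 0.53 there. The D20 comparison rested in part on 1 library: without PD20 replicate 4 the 22-nt form was called, with a log2FC of -1.51 and an adjusted p of 0.0455 in edgeR, but so were 116 of the 873 sequences against 13 with all libraries.

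Whether the difference between pregnancy and cycle itself changed with the day was tested as an interaction over all 30 libraries. For the 22-nt form the difference was 1.53 ± 0.71 higher on the log2 scale on D16 than on D12, with an unadjusted p of 0.0388 and an adjusted p of 0.576 in edgeR. From D16 to D20 it changed by -1.19 ± 0.66, with an adjusted p of 0.321, and from D12 to D20 by 0.34 ± 0.68, with an adjusted p of 0.864. Of the members 0 were called in the 3 interactions, beside 0%, 2.41% and 0.115% of all sequences for D16 minus D12, D20 minus D16 and D20 minus D12.

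The make-up of miR-29a was examined apart from its level. Over the 30 libraries the 21-nt form took 51.8 ± 6.82% (SD) of the reads of the 4 sequences in a library, the 22-nt form 27.6 ± 7.52%, the C-start form 16.6 ± 5.02% and the 23-nt form 4.03 ± 2.58%. In PD12 the means were 60.4 ± 4.46% (n = 5) for the 21-nt form and 18.5 ± 6.04% for the 22-nt form. In the other 5 groups the mean share of the 21-nt form lay between 47.8% and 52.8%, and that of the 22-nt form between 26.96% and 32.6%. Single libraries overlapped, with 55.1% to 67.1% of the 21-nt form in PD12 and up to 60.6% in PD16.

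The ratio of the 21-nt to the 22-nt form is taken within a library and so does not depend on scaling. These forms differ by a single adenine at the 3′ end and share their seed. The ratio had a geometric mean of 3.29 in PD12, with a range of 1.99 to 4.44 over its 5 libraries. The other groups lay lower, at 1.97 in PD20, 1.73 in CD16, 1.71 in PD16, 1.65 in CD12 and 1.53 in CD20. The log2 ratio was lower by -0.94 in PD16 than in PD12 and by -0.74 in PD20 than in PD12, and it was higher by 1.00 in PD12 than in CD12. The two-sided exact permutation tests gave p = 0.0238, 0.0173 and 0.0317, and each had an adjusted p of 0.0952 over the 9 comparisons, so 0 of the 9 passed, and single libraries of PD16 and PD20 reached 3.27 and 2.96, inside the range of PD12. The smallest p the design allows is 0.00794 for PD16 vs. PD12, 0.00433 for PD20 vs. PD12 and 0.0159 for PD12 vs. CD12. In the remaining 6 comparisons the log2 ratio differed by between -0.18 and 0.36, with exact permutation p of 0.247 or more.

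**Figure D3:**
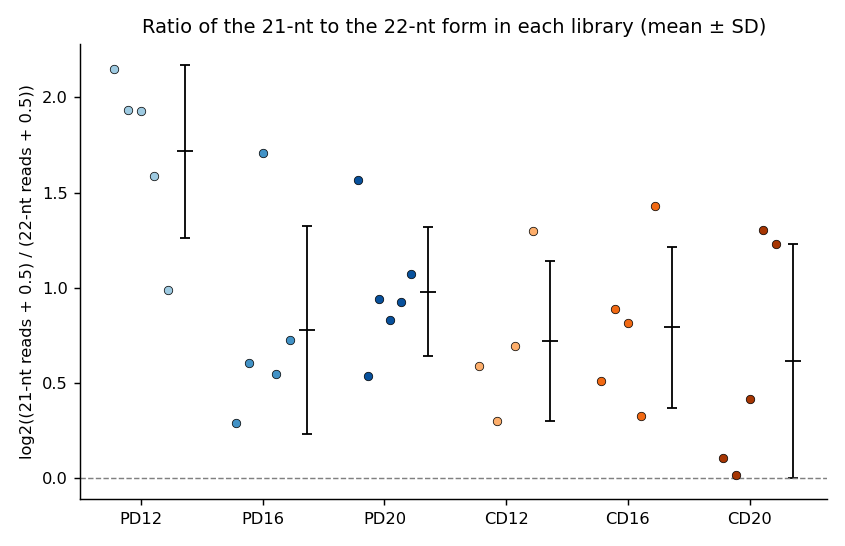
log2 ratio of reads of the 21-nt form to reads of the 22-nt form (y axis, 0.5 reads added to each) in the 6 groups, each point a library, with mean and SD beside the points. The dashed line marks equal reads, and the PD12 group has the highest mean, at 1.72.

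The annotated sequences were not the only reads of this kind. Deposited sequences that began with the first 9 bases of the 21-nt form, with or without 1 more base at the 5′ end, were collected from all files and sorted by their bases at positions 10 and 18, counted from 1 at the 5′ end of the 21-nt form. Reads were sorted only where their bases between positions 10 and 18 were those of the 21-nt form. Among such reads, 6042 were like the members at position 10, 837 carried C10T there and 0 carried another base. Of all collected reads, 61 in 38 sequences were not placed as like the members, C10T alone or C10T with G18A. They differed between these positions or had another combination of bases at them. Sequences like the members at both positions and between them made up 6034 reads in 77 distinct sequences. The 4 annotated ones took 80.8% of these reads. At the 5′ end, 82.3% of these reads began like the 21-nt form and 17.7% carried 1 more base, which was C in 99.7% of such reads. Read from the first base of the 21-nt form onwards, 88.1% matched the 23-nt form up to their own 3′ end, 10.2% departed from it only at their last base and 1.71% departed earlier. The share that departed had a mean of 17.5 ± 3.69% (SD, n = 5) in PD12, and means between 9.87% and 12.6% in the other groups. Single libraries overlapped, with 12.3% to 22.5% in PD12 and up to 18.6% in CD20. This difference was not tested.

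A further 634 reads in 34 sequences differed from the members by C10T alone at these positions, and 203 reads in 26 sequences by C10T and G18A together. Mature miR-29c and miR-29b are known to share the seed of miR-29a and to differ from it outside the seed. No reference used here pairs the deposited sequences with a name, and they are described by their bases. The most abundant ones are printed to show the substitutions, with positions 2 to 8 of each read in capitals as above.
C10T, 21 bases, 301 reads: tAGCACCAtttgaaatcggtt
C10T, 22 bases, 167 reads: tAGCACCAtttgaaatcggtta
C10T and G18A, 22 bases, 55 reads: cTAGCACCatttgaaatcagtg
C10T and G18A, 21 bases, 24 reads: tAGCACCAtttgaaatcagtg
The C10T sequences ended like the 21-nt and 22-nt forms. Both sequences with G18A also differed by T21G at their last base, and the more abundant of them started with C, as the C-start form does.

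The C10T reads were present in all 30 libraries, with 4 to 90 reads in each. Their level was 15.4 ± 11.6 CPM (SD, n = 5) in CD20, 8.57 ± 4.00 (n = 4) in CD12, 8.08 ± 1.53 (n = 5) in PD16, 8.00 ± 3.44 (n = 6) in PD20, 5.85 ± 4.19 (n = 5) in PD12 and 3.77 ± 1.58 (n = 5) in CD16. CD20 was the highest group, as for the members, but its SD was as large as its distance from the others and rested on replicate 1 at 34.1 CPM. In a fit of all 20351 deposited sequences that had 10 reads or more over the cyclic libraries, the 21-base C10T sequence was higher on D20 vs. D16 by a log2FC of 1.90 ± 0.73 and the 22-base one by 1.97 ± 0.83, with adjusted p of 0.588 and 0.637 in edgeR. On D16 vs. D12 of the cycle their log2FC were -1.20 ± 0.76 and -0.67 ± 0.88. In the like fit of the pregnant libraries they were 0.35 ± 0.65 and 0.97 ± 0.86 on D20 vs. D12. Neither sequence was called in these comparisons, but few were. Of the 20351 sequences 0 were called on D20 vs. D16 of the cycle and 12 on D16 vs. D12. Of 22398 in the fit of the pregnant libraries, 120 were called on D20 vs. D12. Reads with C10T and G18A had 4.97 ± 3.15 CPM (n = 5) in CD20 and 3.96 ± 1.13 (n = 5) in PD16, and between 1.40 and 2.25 CPM in the other 4 groups. Of the reads of the 3 kinds in a library, the miR-29a kind took 87.2 ± 5.43% (SD, n = 30), the C10T kind 9.44 ± 4.81% and the kind with both substitutions 3.34 ± 2.03%.

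**Figure D4:**
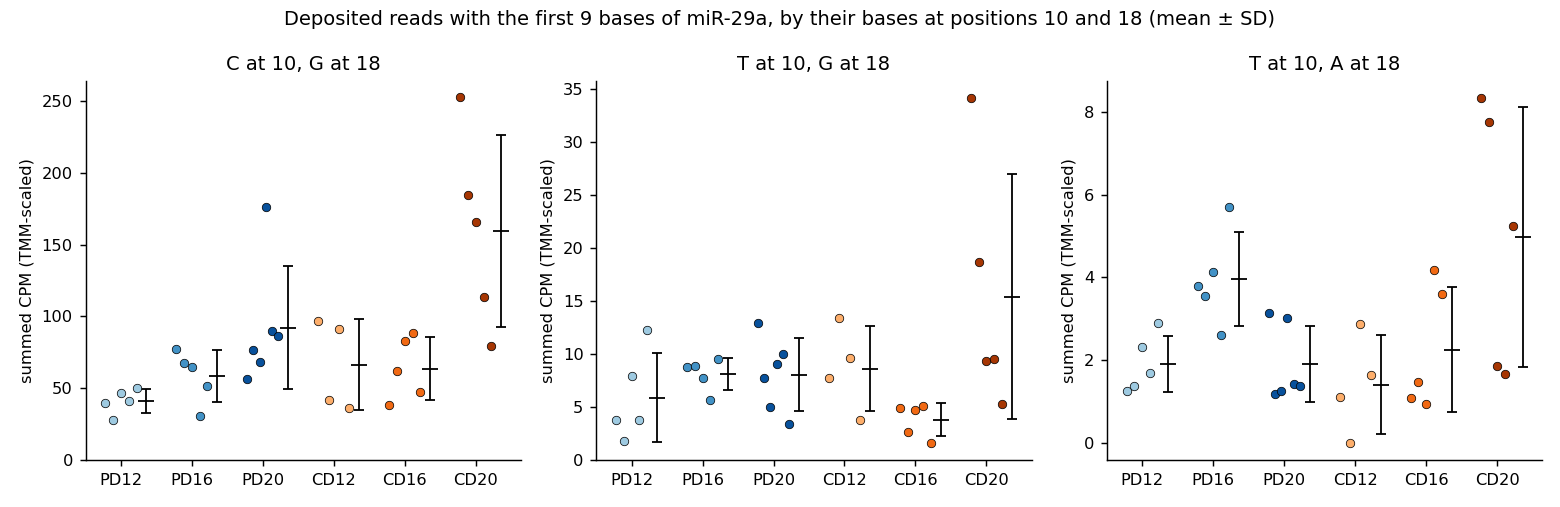
Summed level (y axis, CPM after TMM scaling) of deposited reads that share the first 9 bases of miR-29a, in 3 panels by their bases at positions 10 and 18, each point a library, with mean and SD. The left panel holds the miR-29a kind with up to 252.6 CPM, the middle panel the C10T kind with up to 34.1 CPM, and the right panel the kind with C10T and G18A with up to 8.33 CPM.

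miR-29a was set beside other miRNAs linked to the matrix. A list of matrix-repressing roots (the miR-29, miR-30, miR-200, miR-133, miR-101 and miR-26 families) had 105 annotated sequences from 13 of its 18 roots, the 4 members included. On D20 vs. D12 of pregnancy 1 of the 105 was called higher and 0 lower, a share near the 0.802% of all sequences. It was a 23-base sequence of mir-101, known to target the histone methyltransferase EZH2, with a log2FC of 1.44 ± 0.34 and an adjusted p of 0.0448 in edgeR, named after its value was seen. This call was lost in 18 of 26 other settings, 13 of them leaving out 1 library, with a log2FC from 1.24 to 1.62. The median log2FC of the list was 0.17 beside -0.01 for all 873 sequences, and 0.07 without the 4 members. On D20 vs. D12 of the cycle 0 of the 105 were called, with a median of 0.15 beside 0.09 for all, and of 0.08 without the members. In PD20 vs. CD20, 3 of the 105 were called higher and 0 lower, where 1.49% of all sequences were called, and these 3 were named after their values were seen as well. They came from the 3p arm of the miR-30 family, a family known to be abundant in epithelia: sequences of 20 and 21 bases of mir-30a with log2FC of 2.09 ± 0.50 and 1.66 ± 0.37 (adjusted p 0.04997 and 0.0368 in edgeR), and a 20-base sequence of mir-30c with 2.40 ± 0.55 (adjusted p 0.0405). These calls were lost in 10 to 12 of 19 or 20 other settings each, 7 of them leaving out 1 library. By the study's RT-PCR, the 21-base sequence of mir-30a was higher in PD20 than in CD20. The members had the opposite sign there, with log2FC of -0.51 for the C-start form, -0.68 for the 21-nt form and -1.21 for the 22-nt form. In PD20 vs. CD20 the median of the list was 0.04 beside -0.03 for all, and 0.25 without the members. At an unadjusted p under 0.05 stood 34 of the 105, beside 28.5% of all sequences.

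By root, the median log2FC of D20 vs. D12 of pregnancy was 0.73 for 5 of mir-26a and for 2 of mir-30b, 0.64 for 9 of mir-30c, 0.60 for 12 of mir-101 and 0.54 for 23 of mir-30a, where the 3 members that passed the filter in every group had 1.14, 1.15 and 1.84. It was -0.11 for 8 of mir-30d and -0.27 for 11 of mir-30e, so the roots of the miR-30 family had medians of either sign. It was -0.06 for 7 of mir-200c, -0.26 for 11 of mir-200b, -0.57 for 8 of mir-200a, -0.92 for 2 of mir-141 and -1.04 for 3 of mir-429, members of the miR-200 family that marks epithelium and that the epithelial list below holds too. In CD20 vs. CD12 mir-30b had a median of 0.76 over 2 sequences and mir-26a one of 0.53, beside 1.07, 1.21 and 1.47 for the same 3 members. The median was 0.33 for mir-30c, 0.24 for mir-30d, 0.18 for mir-101, 0.02 for mir-30a and -0.28 for mir-30e. There mir-200c stood at 0.25, mir-200a at 0.23, mir-141 at 0.14, mir-429 at -0.02 and mir-200b at -0.05. The most abundant sequence of the list, a 24-base form of mir-30a, had 14232 ± 3627 CPM (SD, n = 5) in PD12 and 20215 ± 6742 (n = 6) in PD20, with a log2FC of 0.54 ± 0.29 and an adjusted p of 0.455 in edgeR.

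A list of matrix-promoting roots (miR-21, miR-199, miR-214, miR-192, miR-208a and miR-34a) had 44 sequences from 6 of its 7 roots. Of these 0 were called by edgeR in any of the 9 comparisons of 2 groups, where 0% to 1.49% of all sequences were. At an unadjusted p under 0.05 stood 0 of the 44 on D20 vs. D12 of pregnancy, beside 18.7% of all sequences, 3 on D20 vs. D12 of the cycle beside 23.9%, and 11 in PD20 vs. CD20 beside 28.5%. Its median log2FC was -0.16 on D20 vs. D12 of pregnancy and 0.07 on D20 vs. D12 of the cycle. Its most abundant sequence, miR-21, known as a miRNA of fibrotic tissue, had 179501 ± 107773 CPM (SD, n = 5) in PD12 and 189100 ± 55470 (n = 6) in PD20.

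Of the 545 other sequences whose mean reached 10 CPM, those whose log2 level followed the summed level of the members most closely over the 30 libraries were a 20-base sequence of mir-26a (Pearson r = 0.75), mir-20a (0.73), miR-126-3p (0.73), mir-31 (0.73) and miR-24-3p (0.73). The median r of the 545 was -0.02. All points share libraries, depth and scaling with the members. With the group means removed these r were 0.67, 0.66, 0.63, 0.77 and 0.59. miR-126-3p, made from an intron of the endothelial gene EGFL7, had 579.1 ± 277.5 CPM (n = 5) in CD20 and 274.0 ± 74.5 (n = 5) in PD12. miR-24-3p, of the miR-23, miR-27 and miR-24 clusters, had 87.5 ± 48.0 CPM in CD20 and 26.5 ± 14.3 in PD12. The lowest r belonged to a pair of sequences of miR-140, a miRNA known from cartilage, that are named miR-140-3p (-0.74) and mir-140 (-0.73), and to mir-125b-2 (-0.72). miR-140-3p had 224.6 ± 157.4 CPM in CD20 and 749.8 ± 325.3 (n = 4) in CD12. Among the members themselves r ran from 0.67 to 0.89, the highest between the 21-nt and 22-nt forms.

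Levels of marker miRNAs of the cell types of the tissue are set beside these groups. The endothelial marker miR-126, with 17 sequences from 1 of 1 root, summed to 4604 ± 293.0 CPM (SD, n = 5) in CD20, 3913 ± 605.7 (n = 6) in PD20, 3226 ± 490.1 (n = 5) in PD12 and 2602 ± 778.4 (n = 4) in CD12, with a 21-base sequence of mir-126 the most abundant. None of its 17 sequences was called by edgeR in the 9 comparisons of groups, where 0% to 1.49% of all sequences were. On D20 vs. D12 of the cycle 7 of the 17 stood at an unadjusted p under 0.05, beside 23.9% of all sequences. Their median log2FC over the list was 0.74 there, beside 0.09 for all. The leukocyte list, with 15 sequences from 4 of 5 roots and none of mir-223, summed to 440.1 ± 93.0 CPM in CD20, 311.9 ± 116.0 in PD20, 233.5 ± 81.8 in PD16, 208.2 ± 64.8 in CD12, 190.4 ± 67.2 in PD12 and 144.6 ± 59.6 in CD16. Its most abundant sequence, miR-146a-5p, a miRNA induced by inflammatory signals, was called higher in CD20 vs. CD16, with a log2FC of 1.88 ± 0.39 and an adjusted p of 0.0251 in edgeR. It was also called higher in CD20 vs. CD12, with 1.25 ± 0.41 and a joint adjusted p of 0.0446. The first call was lost in 7 of 23 other settings and the second in 13 of 24, among them 5 and 8 that left out 1 library. Of the 15 sequences, 9 stood at an unadjusted p under 0.05 in CD20 vs. CD12 beside 23.9% of all, with a median log2FC of 1.19, and 10 in CD20 vs. CD16 beside 21.2% of all, with a median of 1.49. In PD20 vs. CD20 a 24-base sequence of mir-146a was called lower, with -1.99 ± 0.44 and an adjusted p of 0.0368 in edgeR, a call lost in 10 of 19 other settings.

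The epithelial list, with 69 sequences from 11 of 11 roots and miR-200c the most abundant, summed to 13047 ± 2450 CPM in CD20, 20383 ± 5069 in PD20, 19425 ± 5259 in PD12 and 17041 ± 2185 in CD12. In PD20 vs. CD20, 3 of its 69 sequences were called lower and 0 higher, beside 1.49% of all sequences, and the 3 were all of mir-205, a miRNA of stratified and glandular epithelium, with log2FC between -4.86 and -2.92, and these calls held in each of 19 or 20 other settings. The median of the list had the other sign, at 0.57 beside -0.03 for all sequences, with 28 of the 69 at an unadjusted p under 0.05 beside 28.5% of all. By the study's RT-PCR, the sequencing pattern of miR-205 was reproduced for the days of pregnancy only. The smooth muscle and fibroblast list, with 58 sequences from 5 of 5 roots and miR-10b the most abundant, summed to 682297 CPM in PD20 replicate 1 and to between 123413 and 216426 CPM in the other 5 libraries of PD20. Its group mean was 289800 ± 101681 CPM in CD12, 230579 ± 90830 in CD16, 187285 ± 42549 in CD20, 173432 ± 28403 in PD12 and 137835 ± 60206 in PD16. The PD20 mean with replicate 1 was 252736 ± 212592 CPM. In PD20 vs. PD12, 2 of the 58 were called higher and 0 lower, beside 0.802% of all sequences, with a list median of 0.48 beside -0.01 for all. Both were sequences of mir-10b, with log2FC of 1.30 ± 0.31 and 1.04 ± 0.31 (adjusted p 0.0277 and 0.0448 in edgeR), and these calls were lost in 8 and 14 of 26 other settings. miR-10b itself, the most abundant sequence, had the other sign, with -0.28 ± 0.52 and an adjusted p of 0.920 in edgeR. In PD20 vs. PD16, 3 were called higher and 0 lower, beside 0.573% of all, from mir-10b and mir-143 with log2FC between 1.42 and 1.68, and the list median was 0.86. These were lost in 9, 9 and 12 of 25 other settings. In this comparison miR-10b itself also had the other sign, with -0.15 ± 0.52 and an adjusted p of 0.92 in edgeR. The erythrocyte list, with 16 sequences from 3 of 3 roots and mir-451 the most abundant, summed to 2190 ± 1177 CPM in PD20, 1076 ± 618.0 in CD20 and 1199 ± 425.6 in PD12. The striated muscle list, with 8 sequences from 3 of 5 roots, none of mir-133a or mir-133b, and mir-1 the most abundant, summed to 40186 CPM in PD20 replicate 1, to between 1416 and 8098 CPM in the other 5 libraries of PD20, and to 3082 ± 3211 CPM in CD20. PD20 replicate 1 had the lowest miR-29a level of its group. None of the 16 erythrocyte and 8 striated muscle sequences was called by edgeR in the 9 comparisons, where 0% to 1.49% of all sequences were. In the interaction D20 minus D16, 1 of the 16 and 2 of the 8 were called higher, beside 2.41% of all sequences. Their log2FC were 2.97 for mir-451 and 3.33 and 3.23 for mir-1. Without PD20 replicate 1, 0 of the 873 sequences were called higher in this interaction. At an unadjusted p under 0.05 stood 1 of the 16 and 5 of the 8 on D20 vs. D12 of pregnancy, beside 18.7% of all sequences. The smooth muscle and fibroblast list shares mir-199a and mir-214 with the matrix-promoting list. The part of these cell types in the miR-29a levels was not tested.

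**Figure D5:**
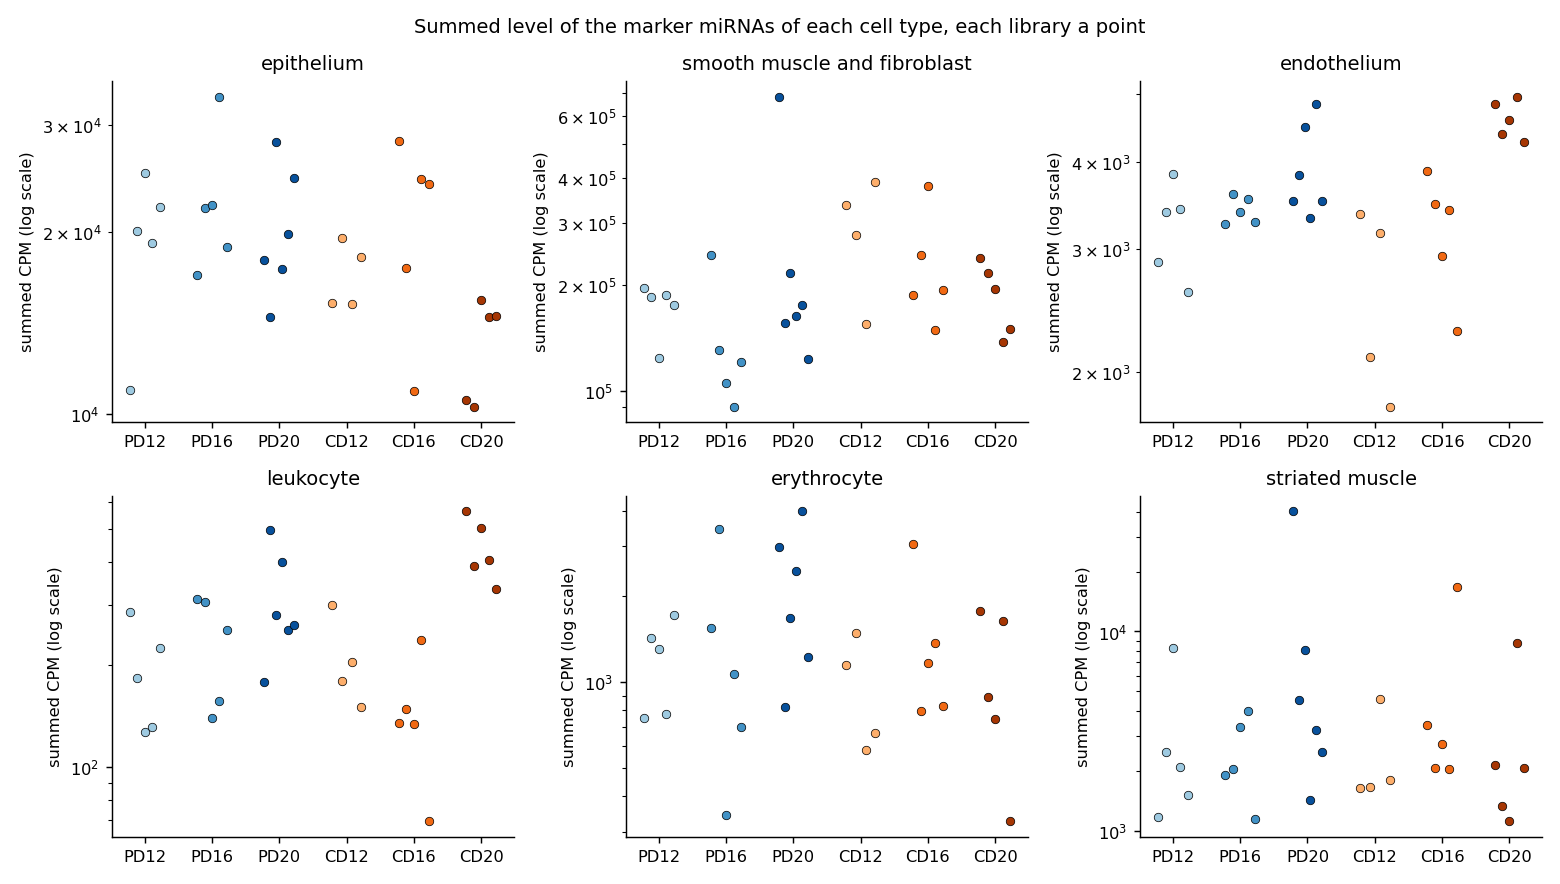
Summed level of the marker miRNAs of 6 cell types (y axis, CPM after TMM scaling, log scale) in the 6 groups, each point a library. The endothelial and leukocyte sums are highest on average in CD20 and the epithelial sum is lowest there, while PD20 replicate 1 stands above the others in smooth muscle and striated muscle.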

How the data were processed

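Small RNA of 30 endometrial libraries was sequenced by the study in 2 runs that were joined. The authors deposited, for each library, raw counts of each distinct sequence of 17 to 31 nt, after they dropped reads with any base of low quality, removed adapters and collapsed identical reads. The counts are not aligned or normalized. Groups and replicate numbers came from the sample labels. Annotated sequences and names came from the list of 873 sequences of the study and were joined by exact match, and no values of that list were used. Members and lists were chosen with earlier results of these data known.

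Counts of the 873 sequences were fitted in edgeR 4.0.16 (R 4.3.3) with TMM scaling, the sum of their reads as library size and a prior count of 0.125. The quasi-likelihood F-test was applied to the 3 days of each status, D12 against both later days in a joint test and D20 vs. D16 as a single contrast, pregnancy vs. cycle was fitted per day, and interactions used all libraries. p-values were adjusted over all sequences by Benjamini-Hochberg. SE were derived from the F of the single contrast. The ratio of the 21-nt to the 22-nt form was tested by exact permutation (scipy 1.17.1) with 0.5 reads added. The fits were tested on simulated data with 200 changed sequences. Besides the members, the text names the 5 sequences most like and the 3 least like their summed level and the most abundant sequence of each list. All libraries were used, and the highest share of identical counts between any pair of them was 4.70%, so none was treated as a duplicate. Alternatives were a likelihood ratio test, DESeq2 1.42.0, RLE scaling, all deposited reads as library size, a filter at 10 CPM, all deposited sequences, a single contrast, 1 fit of 30 libraries, blocks by replicate or by library number, and leaving out each library. Genome coordinates are not given, since the study aligned to another pig build than the annotation used here. Replicate numbers do not pair animals: over 70 pairs of same-numbered libraries the correlation of deviations from the group means had a median of -0.04.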

Additional observations from a re-analysis of the deposited data

Results flagged for a closer look

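In a group of 4 to 6 libraries, a library was set aside for a look when its gap to the nearest other, divided by the range of the group, passed the 95% critical value of Dixon's test. Of 36 such tests 4 passed, and chance gives about 1 in 20. PD20 replicate 4 stood above its group in the 21-nt form (70.5 CPM, next 37.3), in the 22-nt form (39.6 CPM, next 20.7) and in the sum of the 4 sequences (135.9 CPM, next 75.0). PD12 replicate 3 stood above its group in the 23-nt form, with 3.23 CPM from 7 reads and 0.678 CPM in the next library.

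Signal was also present in deposited sequences that the comparisons of the annotated list do not use. Among reads like miR-29a in their first 9 bases and between positions 10 and 18, 634 differed by C10T and 203 by C10T and G18A. For comparison, 3 reads are the limit that a count of 0 allows. The first kind was seen in 30 libraries and the second in 29.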

How the results depend on the processing

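In the quasi-likelihood fits of all libraries, as described in the methods, no member was called, and this held for 100 of 109 alternatives and for 208 of 210 fits without 1 library. The likelihood ratio test called 1 member in PD16 vs. PD12, 1 in PD20 vs. PD12, 3 in CD20 vs. CD12 and 2 in CD20 vs. CD16. DESeq2 called 2 in PD20 vs. PD12 and 3 in CD20 vs. CD16, 1 fit of 30 libraries called 2 in CD20 vs. CD12 and 2 in CD20 vs. CD16, and the single contrast called 1 in PD20 vs. PD12. These settings called more of the 873 sequences as well: 46 with the likelihood ratio test, 55 with DESeq2 and 25 with the single contrast instead of 7 in PD20 vs. PD12, and 50 and 64 with 1 fit of 30 libraries instead of 4 and 4 in CD20 vs. CD12 and CD20 vs. CD16. The likelihood ratio test called 24 instead of 2 in PD16 vs. PD12, 50 instead of 4 in CD20 vs. CD12 and 56 instead of 4 in CD20 vs. CD16, where DESeq2 called 75. Without 1 library the count ran from 0 to 1 in CD20 vs. CD16, where the 23-nt form was called without CD20 replicate 3 among 36 of the 873 sequences, and from 0 to 1 in PD20 vs. CD20, where the 22-nt form was called without PD20 replicate 4 among 116 of them, against 4 and 13 with all libraries. Among single log2FC, 323 of 350 kept their direction and their side of the threshold, 17 passed it and 10 changed sign, the latter all in CD16 vs. CD12, PD16 vs. CD16 or an interaction. With all deposited reads as library size, which moved the median of all sequences by 0.39 in CD20 vs. CD12 and by -0.52 in the interaction D20 minus D12, the sign changed for the 21-nt form in CD16 vs. CD12 (0.028), the 21-nt and 22-nt forms in PD16 vs. CD16 (0.082 and 0.024) and the 22-nt form in the interaction D20 minus D12 (-0.047). With the library number as a block the 21-nt and 22-nt forms were 0.041 and 0.19 in PD16 vs. CD16, and with 1 fit of 30 libraries the 21-nt form was 0.0016 in PD16 vs. CD16.

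With the replicate number as a block 0 members were called. The block turned the 21-nt form (0.17) and the 22-nt form (0.31) in CD16 vs. CD12, the 23-nt form in PD16 vs. CD16 (-0.26) and the ratio of the 21-nt to the 22-nt form in CD16 vs. CD12 (-0.085), and for the 22-nt form it gave 1.93 in PD20 vs. PD12 with an adjusted p of 0.153 in edgeR. Same-numbered libraries did not deviate together, with correlations from -0.60 to 0.62 over 70 pairs and 19 over 0.1. Without 1 library, signs changed in CD16 vs. CD12 for the 21-nt (-0.26 to 0.17), 22-nt (-0.43 to 0.13) and 23-nt form (-0.49 to 0.23), in PD16 vs. CD16 for the same forms (-0.16 to 0.20, -0.22 to 0.21 and -0.36 to 0.55), and for the ratio in PD16 vs. CD16 (-0.25 to 0.14), CD16 vs. CD12 (-0.085 to 0.27) and CD20 vs. CD12 (-0.28 to 0.088). The cause of these changes was not tested. The other ratios kept their direction, and 0 of them passed under any alternative. Matching to hairpins, and leaving out libraries for reads outside the annotated list, were not run, since no hairpin sequence was used. A count without the extra 5′ base, added after seeing the data, gave 620 instead of 634 reads with C10T and 94 instead of 203 with C10T and G18A. With 52 to 552 miR-29a reads per library, differences of the 23-nt form are limited by depth.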
